A study of Homo sapiens with 6 samples.

Results

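Of the 18417 genes that had an array row carrying a single gene symbol, 10 are the sarcomeric myosin chains described here. They are the heavy chain genes MYH3 (embryonic), MYH8 (perinatal), MYH7 (slow), and MYH1, MYH2 and MYH4 (fast), and the light chain genes MYL4 (embryonic), MYL6B (slow), MYL1 and MYL11 (fast). The genes were chosen by name as members of the family, with earlier results of these data known. Another 8 striated muscle myosins are described separately below. Each of the 10 genes had 1 row, so no choice between rows was needed.

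Myosin is the motor protein of the thick filament: its heavy chains split ATP and pull on actin, and its essential and regulatory light chains wrap the lever arm of the motor and tune it. Developing muscle fibres first use embryonic and perinatal heavy chains, which give way to slow or fast forms as the fibres mature. Rhabdomyosarcoma cells contain the transcription factors of the muscle lineage but usually stop short of full differentiation, and myosin heavy chain is a common readout of how far they go.

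RNA came from RD18, an established human cell line of embryonal rhabdomyosarcoma, and was read on 6 Affymetrix Human Gene ST arrays. The induced miR-22 cells were the RD18 derivative NpBI-22 kept in doxycycline at 1 µg/ml for 6 days, with 2 arrays, and the non-induced miR-22 cells were the same derivative without doxycycline, also with 2 arrays. The derivative NpBI-206AS served as a further control and had 1 array of induced cells, given the same doxycycline treatment, and 1 array of non-induced cells. The labels say neither what NpBI-206AS expresses once induced nor whether either derivative is a single clone. The series calls the miR-22 replicates biological. All values below are the authors' RMA values on the log2 scale, on which a difference of 1 is a 2-fold difference, and the number of arrays limits their precision.

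The mature microRNA that gives the line its name is shown because it is the induced agent. It is hsa-miR-22-3p, encoded at chr17:1713914-1713935 on the minus strand of GRCh38.p14, with the RefSeq sequence below in which capitals mark the seed, bases 2 to 8.
hsa-miR-22-3p: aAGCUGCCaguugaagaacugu

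Both induced miR-22 arrays carried a signal from MIR22HG, the host gene of miR-22, of 10.02 and 10.01, against 6.27 and 6.72 in non-induced miR-22 cells. Its levels in NpBI-206AS cells were 6.32 when induced and 6.41 when not. The array codes in the labels start with R715 for both induced miR-22 arrays, R509 for non-induced miR-22 replicate 1, and R587 for replicate 2 and both NpBI-206AS arrays; the labels do not explain the code. Array pairs with a shared code prefix correlated at 0.9927 or more over all rows and other pairs at 0.9866 or less. For the induced miR-22 arrays, the prefix and the induction cannot be told apart. All 8 skeletal muscle lineage markers, among them MYOD1, MYOG, DES and CDH15, lay above the array median on every array. Their mean log2 level was 8.80 to 9.01 in induced and 9.32 to 9.61 in non-induced miR-22 cells, and 9.09 to 9.19 in NpBI-206AS cells. In induced against non-induced miR-22 cells, the mean of 6 measured cardiac markers was 5.33 to 5.40 against 5.37 to 5.45. For 6 smooth muscle markers it was 5.38 to 5.43 against 5.14 to 5.41, and for 6 fibroblast markers 6.78 to 6.87 against 6.39 to 6.44. In NpBI-206AS cells these 3 means were 5.25 to 5.33, 5.25 to 5.35 and 6.12 to 6.32. One smooth muscle marker, CNN1 (1.13, limma adjusted p = 0.036), and 1 fibroblast marker, THY1 (1.51, limma adjusted p = 0.025), were higher in induced miR-22 cells, and the part of such genes in the myosin values was not tested. Of the skeletal list 1 gene fell, DES, the muscle intermediate filament desmin (-1.07, limma adjusted p = 0.038). At an unadjusted p under 0.05, 5 of the 8 skeletal markers were lower and 0 higher, against 11% and 10.6% of all rows. For 7 of 8 both induced miR-22 arrays lay below both non-induced ones, against 26% of all rows. The list median was -0.62. The part of this difference in the myosin values was not tested. Of the cardiac list 0 were called, also at an unadjusted p under 0.05. At that unadjusted threshold 1 smooth muscle marker was lower and 1 higher, and 0 fibroblast markers were lower and 2 higher.

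Compared with non-induced miR-22 cells, induced miR-22 cells had lower RNA of the embryonic and perinatal heavy chains and of both fast light chains. The slow forms showed no detectable difference. These 2 groups also differ in doxycycline and in code prefix. In limma, 4 of the 10 myosin genes (MYH3, MYH8, MYL1 and MYL11) were lower once miR-22 was induced and 0 were higher. Over all 33297 rows, 2.01% were called lower and 1.59% higher. At an unadjusted p under 0.05, 6 of the 10 genes were lower and 0 higher, against 11% and 10.6% of all rows. All 10 estimates were below 0, with a median log2 difference of -0.99 against -0.01 over all rows. Both induced arrays lay below both non-induced arrays for 8 of the 10 genes, compared with 26% of all rows, and above them for 0, compared with 25%. Leaving out 1 miR-22 array, whichever it was, limma called 0 of the 10 genes, with 6 to 7 lower at an unadjusted p under 0.05, while the median stayed between -1.05 and -0.93. A smaller number of myosin-making cells and less myosin RNA per cell cannot be told apart in such cultures.

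**Figure D1:**
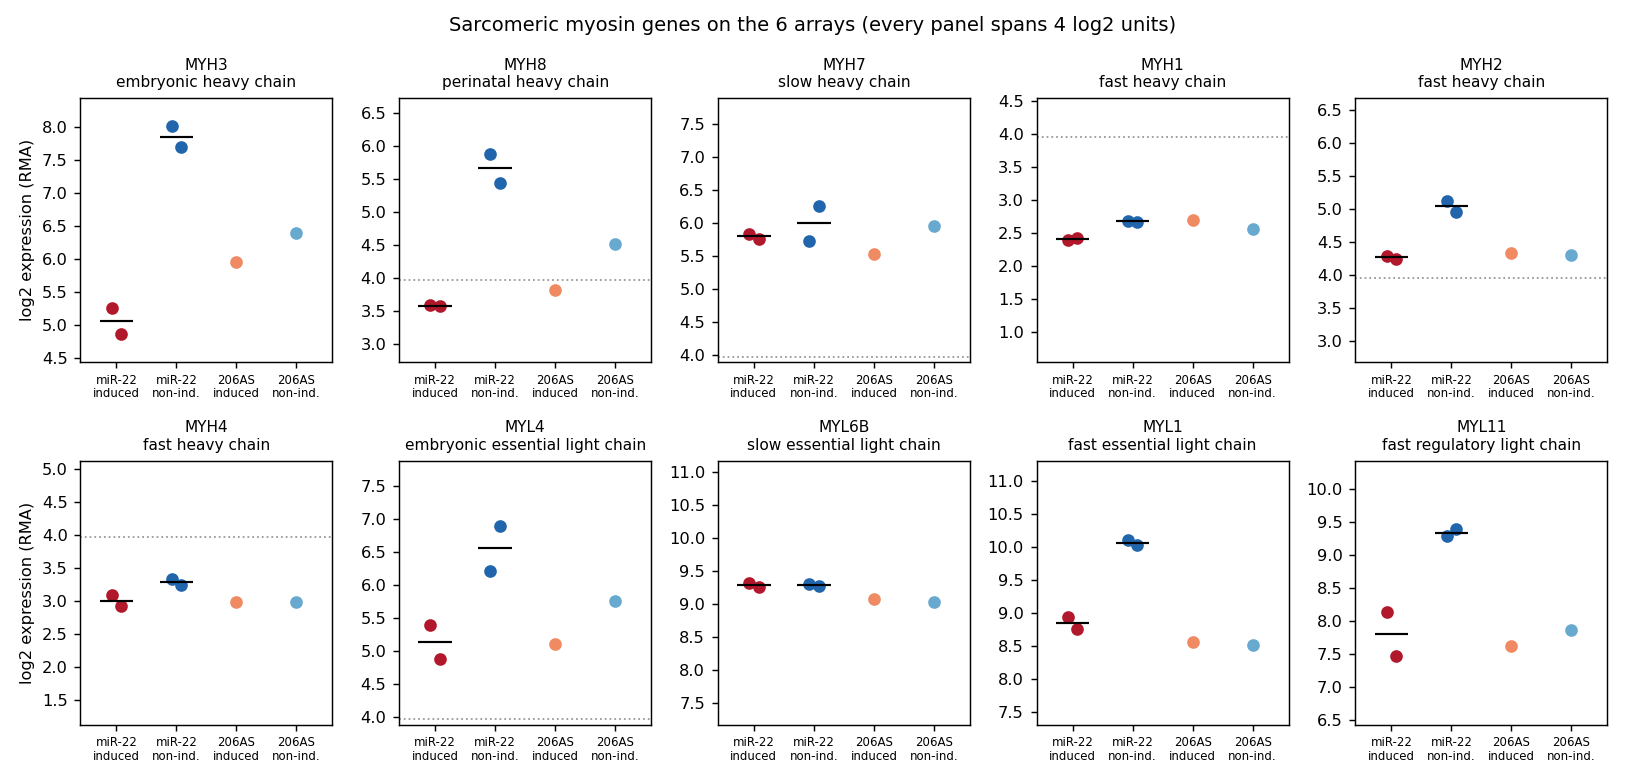
Log2 expression (RMA, vertical axis) of each of the 10 myosin genes in induced and non-induced miR-22 cells (2 arrays each, bar at the mean) and in induced and non-induced NpBI-206AS cells (1 array each). Every panel spans 4 log2 units, and the dotted line is the mean lower quartile of the arrays. Non-induced miR-22 cells stand highest for MYH3, MYH8, MYL1 and MYL11, while MYL6B is level across the groups.

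MYH3, the heavy chain of embryonic muscle, had the largest difference of the family. It read 5.26 and 4.86 in miR-22 cells when induced, against 8.02 and 7.69 when not induced, and 5.95 in induced and 6.40 in non-induced NpBI-206AS cells. The groups did not overlap, and both NpBI-206AS arrays lay between the miR-22 groups. The mean was 5.06 ± 0.28 in induced and 7.85 ± 0.23 in non-induced miR-22 cells (SD, n = 2 each), a 6.93-fold fall (log2 difference -2.79, SE 0.21, limma adjusted p = 0.015). Of all 33297 rows, it ranked 10 from the largest fall.

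MYH8, the perinatal heavy chain, read 3.58 and 3.57 in miR-22 cells when induced, against 5.88 and 5.44 when not induced. Induced NpBI-206AS cells had 3.81 and non-induced NpBI-206AS cells 4.52. MYH8 fell by 2.08 on the log2 scale in miR-22 cells (SE 0.20, limma adjusted p = 0.019). Its 3 lowest values, on both induced miR-22 arrays and the induced NpBI-206AS array, were below the lower quartile of their arrays (3.92 to 3.95). A signal that low is not shown to exceed background.

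MYL4, the essential light chain of embryonic muscle and of the atria, also read lower on both induced miR-22 arrays, with more scatter. It read 5.40 and 4.87 in miR-22 cells when induced, against 6.21 and 6.89 when not induced. NpBI-206AS cells had 5.11 when induced, between the induced miR-22 arrays, and 5.76 when not. The miR-22 groups did not overlap, but their SDs were 0.37 and 0.48 (n = 2 each), and the log2 difference of -1.42 (SE 0.30) did not pass (limma adjusted p = 0.065). Its 95% interval ran from -2.16 to -0.68.

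The fast light chains were lower too. MYL1 encodes the fast essential light chain in a long and a short form made from different starts. It read 8.93 and 8.76 in miR-22 cells when induced, against 10.09 and 10.02 when not induced. It fell by 1.21 (SE 0.16, limma adjusted p = 0.026), a 2.32-fold difference. NpBI-206AS cells had only 8.55 when induced and 8.51 when not, so every miR-22 array lay above them.

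MYL11, the fast regulatory light chain also written MYLPF, read 8.14 and 7.47 in miR-22 cells when induced, against 9.28 and 9.39 when not induced. It fell by 1.53 (SE 0.25, limma adjusted p = 0.040), or 2.89-fold. NpBI-206AS cells had 7.62 when induced and 7.86 when not. The induced miR-22 arrays lay on either side of these values.

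Among the fast heavy chains, none passed, and MYH2 had the largest difference. MYH2, the chain of type IIa fibres, read 4.30 and 4.25 in miR-22 cells when induced, against 5.13 and 4.96 when not induced. The log2 difference was -0.77 (SE 0.15, 95% interval -1.15 to -0.39, limma adjusted p = 0.060). NpBI-206AS cells read 4.33 when induced and 4.31 when not, close to induced miR-22 cells. On all 6 arrays MYH2 lay below the array median, though above the lower quartile, so these low values may lie near background.

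MYH1 and MYH4, the chains of the fastest fibres, were below the lower quartile on all 6 arrays and are not shown to be above background anywhere. MYH1 had 2.40 and 2.42 in miR-22 cells when induced, against 2.68 and 2.67 when not induced. MYH4 had 3.08 and 2.92 in miR-22 cells when induced, against 3.33 and 3.23 when not induced. Differences of -0.27 and -0.28 did not pass (limma adjusted p = 0.36 and 0.37).

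For neither slow form was a difference beyond the replicate spread detected. MYH7, the heavy chain of slow fibres and of the heart ventricle, read 5.83 and 5.75 in miR-22 cells when induced, against 5.73 and 6.25 when not induced. Its groups overlapped, and the log2 difference was -0.20 with a 95% interval from -0.73 to 0.33 (limma adjusted p = 0.67). NpBI-206AS cells read 5.53 when induced and 5.95 when not.

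MYL6B, the slow essential light chain that non-muscle tissues also make, read 9.32 and 9.27 in miR-22 cells when induced, against 9.32 and 9.28 when not induced. Its log2 difference was -0.0052 with a 95% interval from -0.37 to 0.36. It had the narrowest range of the 10 genes, 0.28 over the 6 arrays, with its 2 lowest values, 9.08 and 9.04, in induced and non-induced NpBI-206AS cells.

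Grouped by form, 2 of 3 developmental genes fell, where 2.01% of all rows were called lower. They were MYH3 at -2.79 and MYH8 at -2.08, whose induced signals lay below the lower quartile, beside -1.42 for MYL4. Among 5 fast genes 2 fell, and the estimates ranged from -1.53 to -0.27. Neither of the 2 slow genes passed, at -0.20 and -0.0052. No test of one form against another was made, and with so few genes per form the counts do not rank the forms.

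**Figure D2:**
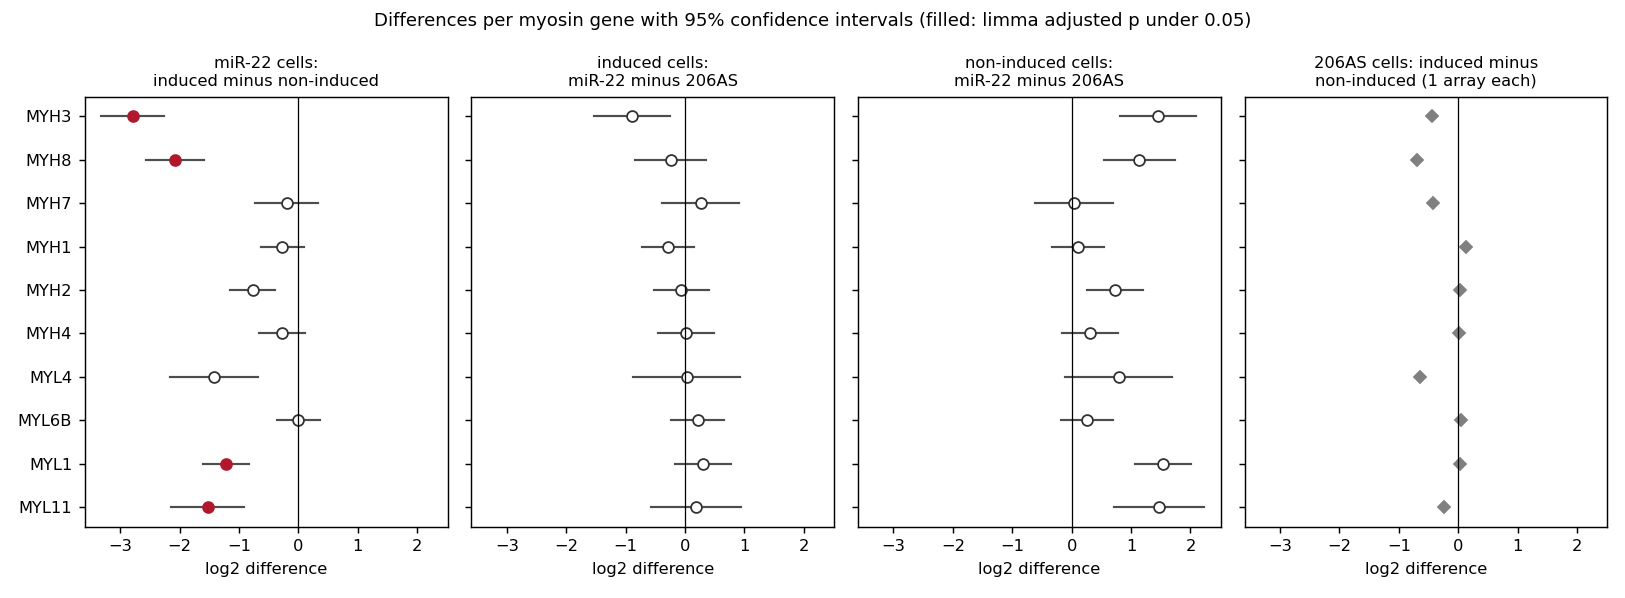
Log2 difference (horizontal axis) of each myosin gene in 4 comparisons, with 95% confidence intervals from limma in the first 3; the last has 1 array per condition and no interval. Filled points passed at an adjusted p under 0.05: MYH3, MYH8, MYL1 and MYL11 in the first panel, and none in the others.

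Doxycycline was then matched by setting induced miR-22 cells against induced NpBI-206AS cells, 2 arrays against 1, with the lone array assumed to vary like the other groups. In limma, 0 of the 10 genes were called lower and 0 higher, where 0.186% of all rows were lower and 0.204% higher; at an unadjusted p under 0.05, 1 was lower, as were 8.55% of all rows. That gene was MYH3, with 5.26 and 4.86 in induced miR-22 cells against 5.95 in induced NpBI-206AS cells. Its log2 difference was -0.89 (SE 0.26, 95% interval -1.54 to -0.25, limma adjusted p = 0.19). The median over the family was 0.02, against 0.03 over all rows, and 6 of 10 estimates were above 0. For MYL1 the estimate was 0.30 (95% interval -0.17 to 0.77) and for MYL11 0.18 (95% interval -0.58 to 0.94). Leaving out induced miR-22 replicate 1 turned the family median to -0.12.

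Without doxycycline, every myosin estimate was higher in the miR-22 line, though no gene passed. Non-induced miR-22 cells were set against non-induced NpBI-206AS cells, again 2 arrays against 1. All 10 estimates were above 0, with a median of 0.76 against 0.03 over all rows; over the 5 genes left without the dimmest 50 percent of rows it was 1.46. The differences were 1.54 for MYL1 (SE 0.19), 1.48 for MYL11 (SE 0.30), 1.46 for MYH3 (SE 0.26) and 1.14 for MYH8 (SE 0.24). Limma called 0 of the 10 genes in either direction and 0% of all rows (adjusted p = 0.93 for all 4 named), while 5 were higher at an unadjusted p under 0.05, as were 1.68% of all rows. For 8 of 10 genes both non-induced miR-22 arrays lay above both NpBI-206AS arrays, as did 22.1% of all rows.

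Non-induced miR-22 replicate 2 and non-induced NpBI-206AS cells share the code prefix R587. This pair is a portion of the comparison just given, uses the same NpBI-206AS array and has no test. Its differences were 1.51 for MYL1, 1.53 for MYL11, 1.29 for MYH3, 0.92 for MYH8, 1.14 for MYL4 and 0.30 for MYH7. For MYL4 and MYH7 the estimates over both replicates were 0.79 and 0.04. The comparisons of induced with non-induced miR-22 cells and of the lines before doxycycline use the same 2 non-induced arrays, which are the highest of all 6 for MYH3, MYH8, MYH2, MYH4, MYL4, MYL1 and MYL11.

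Within NpBI-206AS cells, 1 induced array was set against 1 non-induced array, without a replicate. None of the 10 genes was 2-fold apart; of all rows 0.438% were at least 2-fold lower and 0.234% at least 2-fold higher. The embryonic and perinatal chains had the largest differences, -0.70 for MYH8, -0.65 for MYL4 and -0.44 for MYH3, with -0.42 for MYH7. MYL1, MYL6B, MYH2 and MYH4 lay between 0.0073 and 0.038, and the family median was -0.11 against 0.0024 over all rows.

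Whether the response differed between the lines was tested by subtracting the NpBI-206AS difference from the miR-22 difference. Limma called 0 of 10 genes, as it did 0% of all rows, with 5 lower at an unadjusted p under 0.05, as were 4.54% of all rows. The largest estimates were -2.35 for MYH3 (SE 0.37, limma adjusted p = 0.27) and -1.38 for MYH8 (SE 0.34, limma adjusted p = 0.39). MYL11 had -1.30 (SE 0.43) and MYL1 -1.25 (SE 0.27), and the family median was -0.78, or -1.25 over the 5 genes left without the dimmest 50 percent of rows. A difference in response between the lines was not shown for any myosin gene at an adjusted p under 0.05.

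In the RefSeq annotation, 5 of the heavy chain genes are neighbours on chromosome 17, in the order MYH8, MYH4, MYH1, MYH2, MYH3; the neighbours next to them were picked after the myosin values were known. The genes that fell, MYH8 and MYH3, stand at the ends of this block of 5. Between them, MYH4 and MYH1 lay below the lower quartile on all 6 arrays, where a fall could hardly show. MYH2 differed by -0.77 (limma adjusted p = 0.060). The nearest measured genes on either side of the block did not pass: MYH13 and GAS7 beyond MYH8, and SCO1 and ADPRM beyond MYH3. MYH13, the extraocular muscle chain next to MYH8, differed by -0.01 (95% interval -0.46 to 0.43). SCO1, a mitochondrial assembly gene next to MYH3, differed by 0.06 (95% interval -0.30 to 0.43), and GAS7 and ADPRM farther out by 0.03 and 0.42 (limma adjusted p = 0.94 and 0.19). MYL6, which neighbours MYL6B on chromosome 12 and encodes the non-muscle and smooth muscle light chain, differed by 0.35 (95% interval -0.10 to 0.80). Next to MYL1, CPS1, a urea cycle enzyme, rose by 1.71 (SE 0.16, limma adjusted p = 0.019), opposite in direction to MYL1. Next to MYL11, TBC1D10B differed by -0.78 (95% interval -1.36 to -0.19, limma adjusted p = 0.14). The genes measured on the other side did not pass, ACADL by MYL1 at 0.11 and SEPTIN1 by MYL11 at -0.12. Neither did ESYT1 by MYL6B, CDC27 and ITGB3 by MYL4, or MIR208A and NGDN by MYH7. Without the array's probe sequences, any signal that these similar heavy chain genes share with each other or with the overlapping noncoding gene MYHAS could not be assessed.

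**Figure D3:**
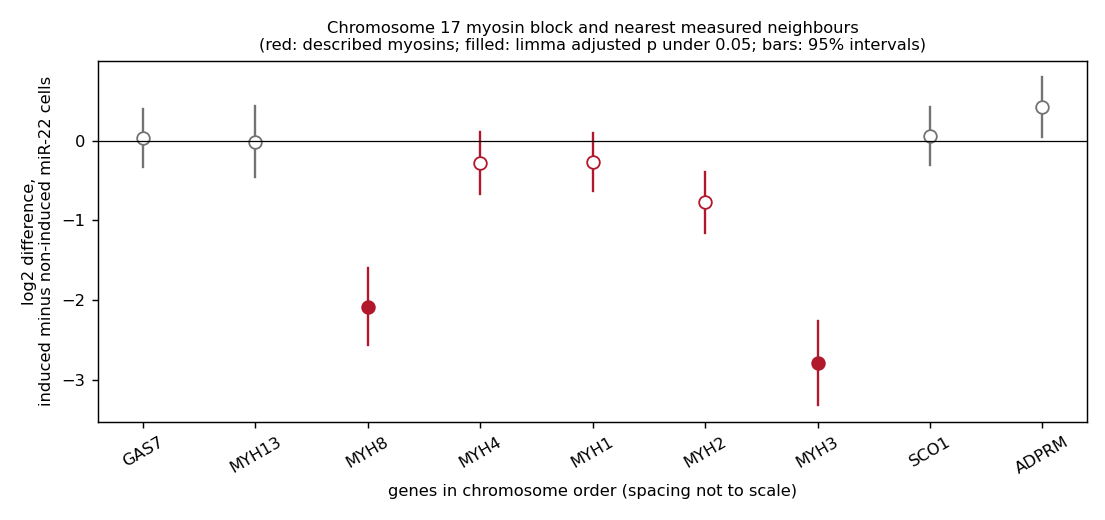
Log2 difference, miR-22 induced minus non-induced (vertical axis, bars are 95% intervals) for the chromosome 17 myosin genes in red and their nearest measured neighbours in grey, in chromosome order without scale. MYH8 and MYH3 are filled because they passed at an adjusted p under 0.05, and the other genes shown did not.

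Promoter sequence is shown for genes that fell (MYH8, MYL1 and MYL11), for MYH2 beside them, and for MYL6B, whose estimate was nearest to 0. RefSeq windows of GRCh38.p14 were at hand for 7 of the 10 genes (MYH1, MYH2, MYH4, MYH8, MYL1, MYL11 and MYL6B), with a second start for MYL1 and MYL11, which gave 9 windows of 250 bases before the annotated start. Each is written 5′ to 3′ on the strand of its gene, and capitals mark matches to the E-box CANNTG, the site of myogenic bHLH factors such as MYOD1, and to the MEF2 consensus, the site of the MEF2 factors. They are MYH8 at chr17:10421951-10422200 (minus strand), MYH2 at chr17:10549659-10549908 (minus), MYL1 start 1 at chr2:210315175-210315424 (minus), MYL11 start 2 at chr16:30372044-30372293 (plus) and MYL6B at chr12:56152337-56152586 (plus). For MYL1 and MYL11 the start shown is the one with more E-box matches, 1 and 2. MYL1 start 2, not shown, has 0 E-box matches and 1 MEF2 match, and MYL11 start 1 has 1 E-box match.
MYH8: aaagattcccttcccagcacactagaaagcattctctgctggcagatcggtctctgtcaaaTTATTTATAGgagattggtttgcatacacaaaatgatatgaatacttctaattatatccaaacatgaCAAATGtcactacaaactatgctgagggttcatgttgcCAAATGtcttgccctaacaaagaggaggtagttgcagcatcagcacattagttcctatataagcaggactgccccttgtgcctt
MYH2: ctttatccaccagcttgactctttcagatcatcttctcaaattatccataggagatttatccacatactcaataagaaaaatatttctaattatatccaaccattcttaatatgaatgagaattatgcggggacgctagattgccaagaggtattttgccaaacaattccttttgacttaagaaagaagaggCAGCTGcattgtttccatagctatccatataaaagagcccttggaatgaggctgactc
MYL1 start 1: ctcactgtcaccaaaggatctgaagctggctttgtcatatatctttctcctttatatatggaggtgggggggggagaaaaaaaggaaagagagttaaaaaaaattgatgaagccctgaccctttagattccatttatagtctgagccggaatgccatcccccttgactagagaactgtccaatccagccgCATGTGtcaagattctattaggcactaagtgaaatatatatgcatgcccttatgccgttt
MYL11 start 2: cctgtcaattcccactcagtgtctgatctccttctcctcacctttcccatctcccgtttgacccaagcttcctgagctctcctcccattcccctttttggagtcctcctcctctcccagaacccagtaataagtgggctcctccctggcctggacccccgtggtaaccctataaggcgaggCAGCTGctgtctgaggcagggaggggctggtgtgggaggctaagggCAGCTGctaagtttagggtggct
MYL6B: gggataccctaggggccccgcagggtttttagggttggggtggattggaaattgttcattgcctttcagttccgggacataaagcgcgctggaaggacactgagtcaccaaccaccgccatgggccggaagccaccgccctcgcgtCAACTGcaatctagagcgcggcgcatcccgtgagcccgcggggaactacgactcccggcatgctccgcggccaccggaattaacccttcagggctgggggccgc

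Searched on both strands, the E-box CANNTG occurred in 7 of the 9 windows, and in 61.8% of 35116 windows of the same length in the table. Its form CAGCTG, counted within CANNTG, occurred in 3 (MYH2, MYH4 and MYL11 start 2), against 14% of all windows. A MEF2 consensus stood in 3 (MYH8, MYH1 and MYL1 start 2), against 2.8%. The M-CAT element CATTCC, bound by TEAD factors, was in 5, against 11.9%, and the TATA box letters TATAAA in 5, against 10.7%. MYH1, MYH2 and MYH4 each have a TATAAA match at -31. MYH8 has it only at -186, and MYL1 start 1 only at -200 and -118. In MYH8 and MYH1 a TATA box match lies inside the MEF2 match. The CArG box of serum response factor was in none of the 9 windows and in 1.16% of all.

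The 4 heavy chain windows (MYH1, MYH2, MYH4 and MYH8) also share a stretch of 15 bases, shown because no other gene's window in the table holds it. Counted from the annotated start, its first base is at -144 in MYH8, -166 in MYH2, -159 in MYH1 and -158 in MYH4.
shared stretch, chromosome 17: TTCTAATTATATCCA
Aligned over their whole length, these windows were 57.2% to 69.3% identical, with MYH1 and MYH2 the closest. The MYL6B window had 63.2% G and C, compared with 53.6% and 58% in the MYL11 windows, 42.4% and 46.8% in the MYL1 windows and 33.6% to 42.4% in the heavy chain windows.

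**Figure D4:**
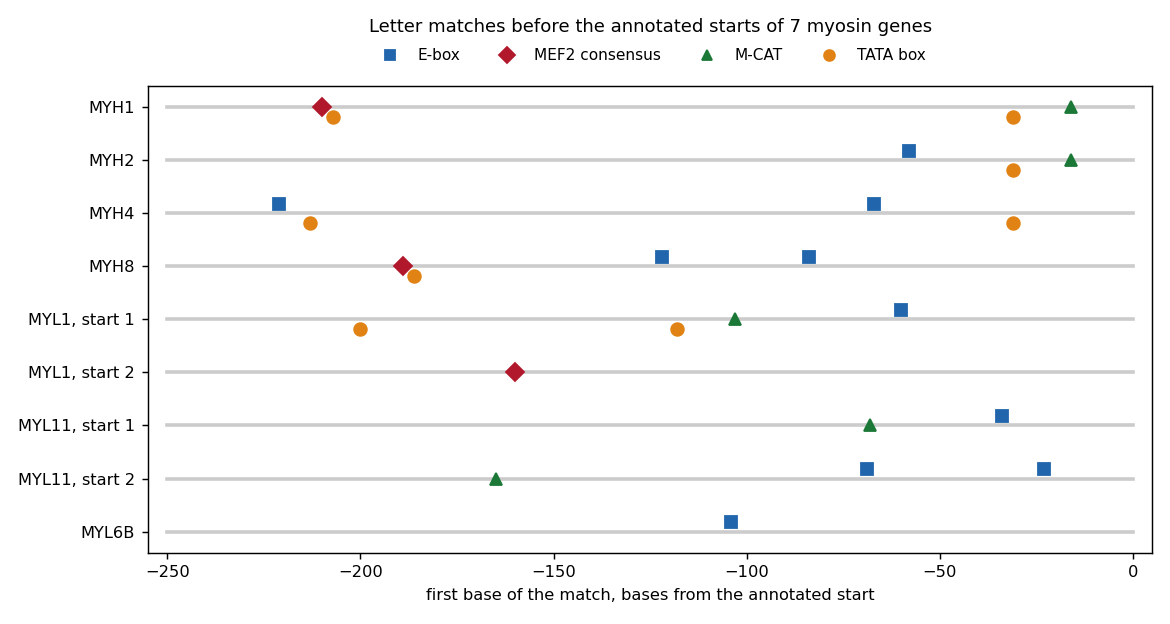
First base of each letter match (horizontal axis, bases from the annotated start) in the 9 windows of 7 myosin genes, with 1 row per start. MEF2 matches appear in MYH1, MYH8 and MYL1 start 2, and MYL6B has a single E-box.

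Other myosins and their partners put these values in context. The lists are of textbook members. Beside the counts below, 2.01% of all rows were called lower and 1.59% higher in the same comparison. At an unadjusted p under 0.05 these shares were 11% and 10.6%. Of 8 other striated muscle myosins, such as MYH6, MYL2, MYL3 and MYL7, limma called 0, also 0 at an unadjusted p under 0.05. The median log2 difference was -0.06. The largest differences were -0.50 for MYH15 and 0.29 for MYL3. MYH15 read 4.08 and 4.11 in induced and 4.26 and 4.93 in non-induced miR-22 cells, against 5.54 in induced and 6.05 in non-induced NpBI-206AS cells, with no overlap between the lines.

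Among 8 non-muscle and smooth muscle myosin II genes, 2 heavy chains fell, 0 genes rose, and the list median was 0.20. At an unadjusted p under 0.05, 2 were higher, the regulatory light chains MYL12A at 0.77 and MYL12B at 0.70 (limma adjusted p = 0.10 and 0.096). MYH10, the heavy chain of non-muscle myosin IIB, read 8.07 and 7.96 in miR-22 cells when induced, against 10.01 and 9.73 when not induced and 9.68 and 9.78 in NpBI-206AS cells. It fell by 1.85 (SE 0.17, limma adjusted p = 0.019). MYH9, the IIA heavy chain, fell by 0.92 (SE 0.16, limma adjusted p = 0.044). For both genes every control array of either line lay above the induced miR-22 arrays. For the sarcomeric members this was true of MYH3, MYH8, MYH1 and MYH2 only, and the share of all rows was not counted. MYH1 lay below the lower quartile on all 6 arrays, and MYH8 on both induced miR-22 arrays. MYH2 was parted narrowly, with 4.30 on induced miR-22 replicate 1 against 4.31 in non-induced NpBI-206AS cells. Both induced miR-22 arrays lay below both NpBI-206AS arrays for MYH3, MYH8, MYH1 and MYH2, 4 of the 10 genes, against 27.2% of all rows. They lay above both for MYL6B and MYL1, 2 of 10, against 33.4%.

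Among thick filament partners, 3 of 10 measured genes fell, against 2.01% of all rows, 0 rose, and the list median was -0.67. At an unadjusted p under 0.05, 7 were lower and 0 higher, against 11% and 10.6% of all rows. MYBPH, a myosin-binding protein, fell by 2.12 (SE 0.15, limma adjusted p = 0.015). TTN, the giant spring titin, fell by 2.02 (SE 0.27, limma adjusted p = 0.028), and MYOM1, an M-band crosslinker, by 0.97 (SE 0.17, limma adjusted p = 0.045).

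Of 12 myosin chaperones, kinases and ligases limma called 0, with 1 lower and 2 higher at an unadjusted p under 0.05. UNC45B, the chaperone that folds muscle myosin, differed by -1.44 (limma adjusted p = 0.096), and SMYD1, a methyltransferase needed for thick filament assembly, by 0.76 (limma adjusted p = 0.063). SMYD1 read 8.45 and 8.55 in miR-22 cells when induced, against 7.65 and 7.82 when not induced. It stood at 6.80 in induced and 6.35 in non-induced NpBI-206AS cells.

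Of 14 measured muscle gene regulators 1 fell, TEAD4, a factor that binds M-CAT elements, by 0.98 (SE 0.17, limma adjusted p = 0.049), and 0 rose. The median of that list was 0.02, and at an unadjusted p under 0.05 3 were lower and 2 higher. The other lower ones were MYMK at -1.18 and MYOG, which drives muscle differentiation, at -0.69 (limma adjusted p = 0.11 and 0.16). The higher ones were MYF6, a myogenic bHLH factor, at 0.52 and SOX6, a repressor of slow fibre genes, at 0.48 (limma adjusted p = 0.13 and 0.16). MYOD1, which starts the muscle programme, differed by -0.53 (95% interval -1.07 to 0.0062, limma adjusted p = 0.24). These 5 genes were picked after their values were seen.

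**Figure D5:**
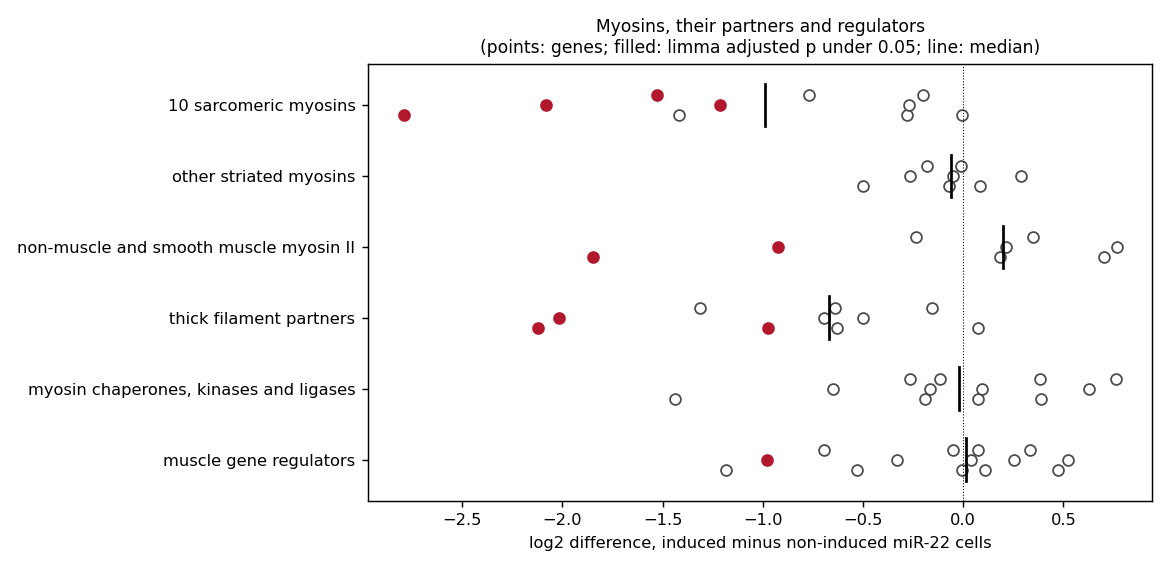
Log2 difference, miR-22 induced minus non-induced (horizontal axis) of the 10 sarcomeric myosins and of 5 lists of related genes; each point is a gene, filled where limma's adjusted p was under 0.05, and the line is the list median. Medians lie at -0.99 for the sarcomeric myosins and -0.67 for thick filament partners, and between -0.06 and 0.20 for the rest.

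Across the 6 arrays MYH3 and MYH8 followed each other closely (Pearson r = 0.979), as did MYL1 and MYL11 (r = 0.963). Closeness was not confined to a shared form. The fast chain MYH2 reached 0.946 with MYH8 and 0.929 with MYH3. With the other fast genes it reached 0.962 (MYL1), 0.952 (MYH4), 0.951 (MYL11) and 0.639 (MYH1). MYH4, below the lower quartile on all 6 arrays, reached 0.966 with MYL11. MYL6B followed the other genes at -0.29 (MYH1) to 0.67 (MYL1), with 0.14 for MYH3. These are descriptions over arrays that share lines and code prefixes. Among 2297 other genes whose values span at least 1 on the log2 scale, those most like MYH3 were TMOD1 (r = 0.999), E2F2 (0.987), MYBPH (0.984), SHD (0.978) and the pseudogene HSD3BP4 (0.977). TMOD1, which caps the slow-growing end of actin filaments, averaged 5.88 ± 0.15 with miR-22 induced and 6.92 ± 0.12 without (SD, n = 2 each), and read 6.21 in induced and 6.40 in non-induced NpBI-206AS cells. Those most like MYL4 were MYMK (0.991), the membrane activator of myoblast fusion, ABCC9 (0.973), CKM (0.962), the muscle creatine kinase, TNNC2 (0.956), the fast troponin C, and MYOM2 (0.952).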

How the data were processed

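Total RNA of 6 RD18 cultures was read on 1 array each. The authors deposited log2 values; the submitters' processing notes name RMA and Partek without versions. RMA subtracts background, makes the distributions of the arrays alike and summarises probes, so a shift common to every transcript is lost. The genome build is not given in the sources used here. Scanner files were not used.

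Rows were named by the platform annotation with symbols updated by gene ID (RefSeq table, GRCh38.p14): 19460 of 33297 rows had 1 symbol, 1754 several and 12083 none. Limma 3.58.1 in R 4.3.3 fitted a mean per group over all 6 arrays (2 residual and 3.62 prior degrees of freedom), with two-sided tests. P-values were adjusted by Benjamini-Hochberg across the 33297 rows and judged at 0.05. The models were checked on simulated arrays. The code prefix could not be a covariate. No replicate block was used. Windows were aligned with Biopython 1.88.

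The members and lists were chosen with earlier results of these data known. Named by rule were all members, up to 4 genes a list that passed (otherwise the 2 largest differences), and the 5 genes most like MYH3 and MYL4. Other named genes, among them MYL12A, MYL12B, MYOG, MYF6, SOX6, MYOD1 and the chromosome neighbours, fell outside this rule. Alternatives were other scalings, a filter on dim rows, averaged rows, a variance trend, fewer arrays and a replicate block.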

Additional observations from a re-analysis of the deposited data

How the results depend on the processing

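For induced against non-induced miR-22 cells, the count of 4 lower myosin genes became 0 (with 6 to 7 at an unadjusted p under 0.05) when any 1 of the 4 miR-22 arrays was left out, where 1 residual degree of freedom remains. MYH3 then ranged from -2.99 to -2.59 and its limma adjusted p reached 0.40. The count was 4 after median centring, a second quantile normalization, a variance trend or a fit of the 4 miR-22 arrays. It was 3 among the 5 genes kept without the dimmest 50 percent of rows, and 6 with averaged rows or the replicate block. The last 2 settings added MYH2 (limma adjusted p = 0.021 and 0.040) and MYL4 (0.016 and 0.043). Averaging changed no member's values, since each had 1 row. That setting also left out every row without a single symbol, which changed the variance estimate and the number of tests. Over 105 single-gene results, 81 kept direction and side of the threshold, 16 lost a call, 4 gained one and 4 turned sign: MYL6B to 0.066 with centred arrays, 0.020 without induced replicate 2 and 0.012 without non-induced replicate 1, and MYH7 to 0.062 without non-induced replicate 2. With 1 array left out, MYL6B ranged from -0.031 to 0.020 and MYH7 from -0.46 to 0.062. Same-numbered replicates deviated together at r = 0.196, but 2 numbers that the labels do not tie to a shared batch do not pair the samples. The family median between the induced lines ran from -0.12 to 0.17 with 1 miR-22 array left out. Without dim rows, the medians were 1.46 between the non-induced lines and -1.25 for the difference of responses. No result was tested for a lone outlying array, since no group has 4. Where MYH1, MYH4 and MYH8 lie below the lower quartile, signal over background limits what their differences show.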
